A study of Drosophila melanogaster with 3 samples.

Results

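Rab proteins are small GTPases that mark membrane compartments and recruit the motors, tethers and fusion factors that move vesicles between them. They switch between a GTP-bound, membrane-bound state and a GDP-bound state, under the control of guanine nucleotide exchange factors (GEFs) and GTPase-activating proteins (GAPs). A core set runs secretion and endocytosis in nearly every cell, while others serve specialised vesicles such as those of synapses or pigment granules. Here the genes of this family were examined for binding of Bab1 (bric à brac 1), a transcription factor of the BTB family that binds DNA through a pipsqueak-type domain, in adult female Drosophila melanogaster.

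The members were the protein-coding genes of the Ensembl annotation whose symbol begins with Rab and a number, or with RabX and a number. This rule took in 36 of 13968 protein-coding genes on the main chromosomes. Of these, 33 encode GTPases; the other 3, Rab3-GEF, Rab3-GAP and Rab3GAP1, match the rule by name only and encode regulators, so counts are also given without them. A gene was counted as carrying a peak if the summit of a peak lay in the gene body or in the 1 kb upstream of it.

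Chromatin immunoprecipitation followed by sequencing (ChIP-seq) was done with an antibody against GFP on whole adult females of unknown age from 1 transgenic line, bab1-RA (bab1-s)-GFP, which stably expresses Bab1 with GFP at its C terminus. The labels do not say which regulatory sequences drive the fusion. All 3 samples are biological replicates of this 1 group, so there is no comparison between conditions, and whether they came from separate cultures is not stated. The files are peak lists: 30000 peaks for each replicate, 30000 for the replicates pooled, and an IDR list of 6896. The last was set by the submitters' threshold on the irreproducible discovery rate (IDR), a measure of how alike peaks rank in replicates. Its 6896 peaks are those of the pooled list with the highest signal value. A single IDR peak therefore need not rank alike in all replicates. Read counts were not used here, so sequencing depth is unknown, and no library of untagged flies was used, so these peaks cannot be told apart from background of the immunoprecipitation. In chromatin of whole flies, more cells with a bound site and more binding per cell cannot be told apart either.

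Most Rab genes carried a peak, and 6 of the 11 without one were X-linked genes of at most 1000 bp. Of the 36 genes, 25 held at least 1 IDR summit (69.4%, exact 95% interval 51.9% to 83.7%), against 44.2% of all protein-coding genes. Among the GTPases alone the count was 23 of 33 (69.7%). The intervals cover counting error only. In the top list of each replicate, its 6896 peaks with the highest signal value, 24 Rab genes carried a peak in replicate 1, 23 in replicate 2 and 26 in replicate 3 (24.3 ± 1.53, mean ± SD, n = 3), against 42.8%, 43.3% and 42.1% of all protein-coding genes. In the pooled list, with no IDR threshold, 29 of 36 carried a peak against a background of 67%. Since this list is longer, its background is higher and the Rab share lies nearer to it than in the IDR list. No test of the family against other genes was made.

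Grouped by their roles, most genes of each group carried a peak except those of little known function. All 8 endocytic Rab genes (Rab4, Rab5, Rab7, Rab9, Rab11, Rab21, Rab35 and RabX1) and 9 of 10 secretory ones (Rab1, Rab2, Rab6, Rab8, Rab14, Rab18, Rab19, Rab30 and Rab39, but not Rab10) carried an IDR summit. Among 7 genes with more specialised roles, Rab23, Rab26, Rab27, Rab32 and Rab40 carried one, and Rab3 and RabX4 did not. Of 8 genes with little known function, RabX6 alone did. The regulators Rab3-GAP and Rab3GAP1 carried one and Rab3-GEF did not. In the replicate top lists the endocytic count was 7.33 ± 0.577 of 8, the secretory count 9 ± 1 of 10 and the count for genes of little known function 1 ± 1 of 8 (mean ± SD, n = 3). Genes of little known function had the lowest share in every replicate. In this group Rab9D, Rab9Db, Rab9E, Rab9Fa, Rab9Fb and RabX2 all lie on X and are only 791 to 897 bp long. For these genes role cannot be told apart from length or chromosome. The endocytic share was above the secretory one in replicates 1 and 2. In replicate 3 it was below, with 7 of 8 against 10 of 10. The role groups were written by hand from general knowledge, and their differences were not tested.

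**Figure D1:**
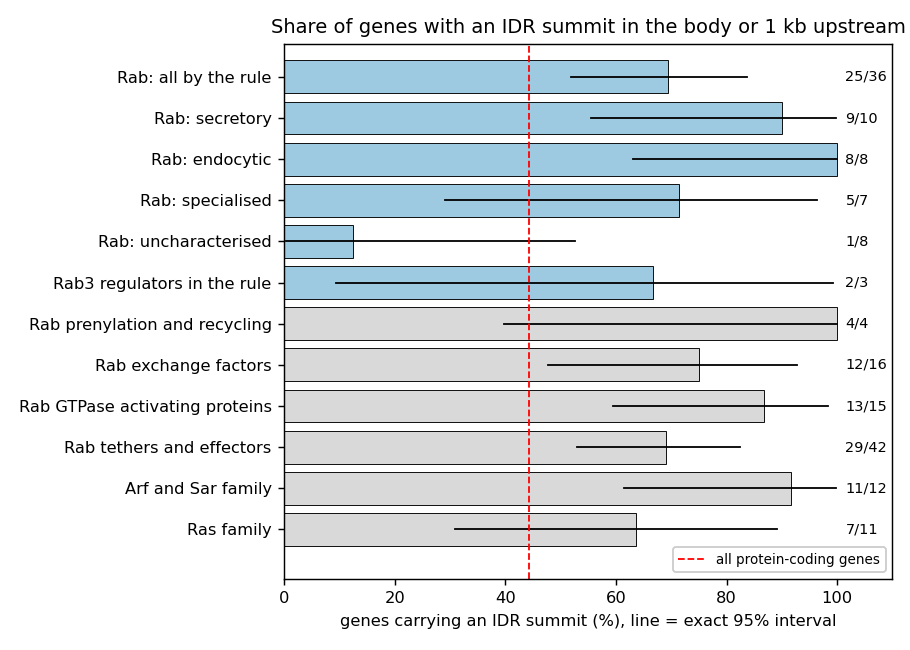
Share of genes carrying an IDR summit (%), with bars for the share, black lines for exact 95% intervals and the number of genes at the right. Blue bars are the members, all together and by role, grey bars are regulators, effectors and other small GTPases, and the dashed line is the 44.2% of all protein-coding genes; the Rab genes of little known function (marked uncharacterised) lie below it with 1 of 8, and the endocytic Rab genes reach 8 of 8.

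The strongest site of the family lay inside Rab5, whose product drives the fusion of early endosomes. Its peak on chromosome 2L, 2363500 to 2364145 (dm6), stood at rank 166 of 6896 with signal value 1429, and its ranks in replicates 1, 2 and 3 were 235, 169 and 133. The summit lay 243 bp upstream of an internal transcription start site (TSS) of Rab5 and 1526 bp downstream of the gene's 5′ end. At that 5′ end, where Rab5 and Axud1 are transcribed away from each other from starts 72 bp apart, the pooled list held a peak with a summit 137 bp upstream of Rab5, with signal value 136.8 and rank 10886, which is not in the IDR list. So the strong peak of Rab5 lay near the internal start. The pooled peak closest to the outer start was weak, with its summit beyond the start of Axud1. Other pooled peaks at Rab5 were weaker still. Signal values are the submitters' own and order peaks within a list only; replicates are therefore compared by rank.

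Below are summit sequences of peaks at Rab genes, read from the RefSeq genome of the same assembly on the strand of the gene, 5′ to 3′, for windows that touch no annotated exon. Capitals mark 2 patterns and their reverse complements, the DNA replication-related element (DRE, TATCGATA), known as the site of the factor DREF, and CGATA, the core known for the insulator protein BEAF-32. The first 2 are strong peaks with neither pattern, namely those inside Rab5 and in the intron of Rab11, and are shown for contrast with the other 4, which hold them.
Rab5, chr2L:2363697-2363797, minus strand: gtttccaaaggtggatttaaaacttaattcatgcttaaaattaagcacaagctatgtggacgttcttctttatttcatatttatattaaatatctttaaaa
Rab11, chr3R:21113155-21113255, plus strand: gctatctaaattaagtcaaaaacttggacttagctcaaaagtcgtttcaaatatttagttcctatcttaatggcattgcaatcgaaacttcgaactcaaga
Rab30, chr2L:7032615-7032715, minus strand: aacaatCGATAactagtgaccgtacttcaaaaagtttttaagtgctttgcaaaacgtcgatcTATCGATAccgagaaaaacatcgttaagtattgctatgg
Rab11, chr3R:21111284-21111384, plus strand: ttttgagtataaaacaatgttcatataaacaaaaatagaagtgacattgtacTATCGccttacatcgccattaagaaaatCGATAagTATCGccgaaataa
Rab3-GAP, chr2L:12063185-12063245, minus strand: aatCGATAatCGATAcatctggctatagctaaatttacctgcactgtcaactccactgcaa
Rab19, chr3L:8297100-8297160, plus strand: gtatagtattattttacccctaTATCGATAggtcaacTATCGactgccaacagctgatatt

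The windows of Rab30 and Rab19 hold a complete DRE, whereas those of the Rab11 promoter and Rab3-GAP hold several copies of CGATA without one. The sequences inside Rab5 and in the Rab11 intron hold none.

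Across the family, DRE was the pattern whose share at Rab summits was furthest, as a multiple, above that at all summits. In windows reaching 50 bp to either side of the summit, both strands counted, it occurred at 5 of 36 distinct Rab peaks (13.9%), at Rab8, Rab19, Rab27, Rab30 and RabX6. It occurred at 4.41% of all IDR summits. Among promoter summits alone it was at 5 of 31 Rab peaks (16.1%) and at 5.9% of all. With 25 bp to either side the Rab count was 3 (8.33%, against 2.29% of all summits and 3.07% of those in promoters). With 100 bp to either side it was 10 (27.8%, against 7.74% and 10.3%), which added Rab2, Rab6, Rab7, Rab14 and Rab35. CGATA, which is contained in every DRE, occurred at 12 Rab peaks (33.3%) and at 23% of all IDR summits. These counts are small and were not tested.

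The other patterns were at 0 to 6 Rab peaks each. TAATAA and TATATA stand for the A/T repeats that Bab proteins are known to bind in vitro. TAATAA occurred at 6 Rab peaks (16.7%, against 14.8% of all summits) and TATATA at 4 (11.1%, against 7.93%). The TATA box (TATAAA) was at 6 (16.7%, against 16.5%), the GAGA pattern (GAGAG) at 2 (5.56%, against 11.7%), and core promoter motif 1 (GGTCACAC) at 2 (5.56%, against 3.07%), those of Rab6 and Rab14. CAGCTG was at 4 (11.1%, against 7.79%), and the E-box CACGTG was at none, with 1.25% of all summits holding it. The Rab windows had a median of 37.6% G and C, and all summit windows 38.6%. A match describes the letters in a window and does not show which protein was there.

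The highest-ranked peaks of the secretory genes were those of Rab39 and Rab18. At Rab39, with a role in Golgi and lysosomal traffic, the peak (X, 7734410 to 7734712, signal 618, rank 953) ranked 1181, 791 and 2058 in replicates 1, 2 and 3, and its nearest TSS, 60 bp away, was that of Pdp. At Rab18, known in mammals from the endoplasmic reticulum and lipid droplets, the peak (X, 5672511 to 5672798, signal 590.6, rank 1034) ranked 3470, 907 and 634 and lay 67 bp from the TSS of RpL35, a ribosomal protein gene, and 855 bp upstream of Rab18. A weaker peak with rank 5797 lay 18 bp inside the start of Rab18 itself. So at Rab18 and Rab39 the strongest peak sat at another gene's start.

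Rab8, which acts in transport from the Golgi to the plasma membrane, had a peak at its own start (3L, 19870953 to 19871212, signal 561.2, rank 1148), shared with Usp32 and ranked 1497, 1329 and 886 in the 3 replicates. Its other peak, with rank 2766, lay 196 bp upstream of an internal TSS. Rab30, a Golgi Rab, had a peak (2L, 7032556 to 7032772, signal 466.6, rank 1669) ranked 1637, 1917 and 1730, midway between its own start, 59 bp away, and that of Caper, a gene of RNA splicing, 56 bp away. Both genes thus have a replicated peak at or beside their own start.

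The remaining secretory genes had weaker peaks within 60 bp of their own start or, for Rab14, 563 bp inside it. The peak at Rab1, which acts between endoplasmic reticulum and Golgi, lay 29 bp upstream (3R, 21268980 to 21269198, signal 406.2, rank 2185) and ranked 2085, 3206 and 1483. That at Rab2, of Golgi and late endosomal traffic, lay 28 bp downstream and shared its promoter with Mob4 (signal 369.3, rank 2633; 2073, 3169 and 1658 in the replicates). These are ordinary promoter peaks near the middle of the list.

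For Rab6, a Golgi Rab, the values were signal 319.3, rank 3468, and 5121, 2117 and 3536 in the replicates. Rab14, known in mammals between Golgi and endosomes, had signal 306, rank 3734, and replicate ranks of 3554, 3597 and 3538, the closest agreement of any strongest peak. Rab19 had the weakest strongest peak of the family (signal 202.3, rank 6874), ranked 6266, 7030 and 4176, so it lay at the end of the IDR list and outside the top list of replicate 2.

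Among the endocytic genes, Rab11, the Rab of recycling endosomes, had a peak in each of 2 positions. The stronger lay in its intron, 1797 bp downstream of the only TSS (3R, 21113056 to 21113356, signal 533.2, rank 1257), and ranked 1299, 1477 and 833 in the replicates. The other lay 74 bp upstream of the TSS (signal 465.8, rank 1676) and ranked 3028, 1582 and 2119. Every replicate had both among its 6896 strongest peaks, so this gene had a distal site as well supported as its promoter.

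Rab9, of transport from late endosomes to the Golgi, had its peak 34 bp inside the start (2L, 19432447 to 19432656, signal 448.6, rank 1811; 1561, 3075 and 1417 in the replicates). Rab21 had signal 379.6 and rank 2487, with 3929, 2706 and 2044 in the replicates, between its start and that of Coa7. Rab7, the late endosome Rab, had signal 353.2 and rank 2874, with 2198, 2604 and 2067, on a promoter shared with Epp. All of these were promoter peaks found in every replicate top list.

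RabX1 followed with signal 323.8 and rank 3384, ranked 4539, 3560 and 3439, beside the gene mi. The recycling Rabs Rab4 and Rab35 were the weakest endocytic members. The peak of Rab4 (signal 242.6, rank 5419) ranked 3236 in replicate 1 but 8560 and 10510 in replicates 2 and 3, and lay 116 bp from the start of UQCR-6.4, a respiratory chain gene, and 794 bp upstream of Rab4. That of Rab35 (signal 230.5, rank 5792; 6546, 7723 and 2994) was the only one in a 5′ untranslated region. Of the endocytic genes, Rab4 thus rests on 1 top list and on a neighbour's start.

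The specialised genes gave values in the middle of the list. Rab32, the lightoid gene of eye pigment granules, led with a peak 30 bp inside its start (2R, 9186186 to 9186433, signal 426.6, rank 1986), which ranked 2423, 2176 and 2681. Rab26, known in mammals from secretory granules, had a peak (3L, 21317953 to 21318123, signal 360.9, rank 2763; 3669, 3770 and 1392) that lay 10 bp from the start of Polycomb (Pc), a chromatin repressor gene, and 764 bp upstream of Rab26. Rab27, known in mammals from regulated secretion, had a peak (signal 345.3, rank 3007; 2692, 2815 and 4806) 10 bp from the start of mei-38, a spindle gene. For Rab26 and Rab27, as for Rab39, the nearest start was again the neighbour's.

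Rab23, a regulator of planar cell polarity in the wing, had 3 IDR peaks, of which 1 remained without replicate 1 and 1 without replicate 2, when support from each of the other top lists was required. Its strongest (3R, 5685377 to 5685800, signal 359.2, rank 2792) ranked 1639 in replicate 1 and 3246 in replicate 2, and no peak of replicate 3 held its summit. The next, with rank 4210, was in all 3 top lists and lay 65 bp from the start of plx. It overlapped the strongest peak, and the same replicate 2 peak, of rank 3246, held both summits. The product of plx carries the TBC domain typical of Rab GAPs, so Rab23 and a gene of the GAP list share a bidirectional promoter, with starts 421 bp apart. Rab40, related to a mammalian family of ubiquitin ligase subunits, had a peak of signal 258.2 and rank 4955 that ranked 5027 and 3107 in replicates 1 and 2 and was held by no peak of replicate 3. RabX6, of little known function, had signal 278.9 and rank 4406 and ranked 8032, 4056 and 3367. These 3 genes had their strongest peak in the top lists of 2 replicates.

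The 2 subunit genes of the Rab3 GAP complex both carried promoter peaks. That of Rab3GAP1 (signal 626.4, rank 925) was second in the family and ranked 738, 1276 and 1024, between Rab3GAP1 and CG14352. That of Rab3-GAP had signal 310.4 and rank 3638 and ranked 4060, 6379 and 1367. Rab3 itself, the Rab of synaptic vesicles, had none. Over the family, the strongest peaks of 19 of the 25 genes were in all 3 top lists. Taking each gene's strongest peak favours such support, and the matching share for all protein-coding genes is not given here.

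**Figure D2:**
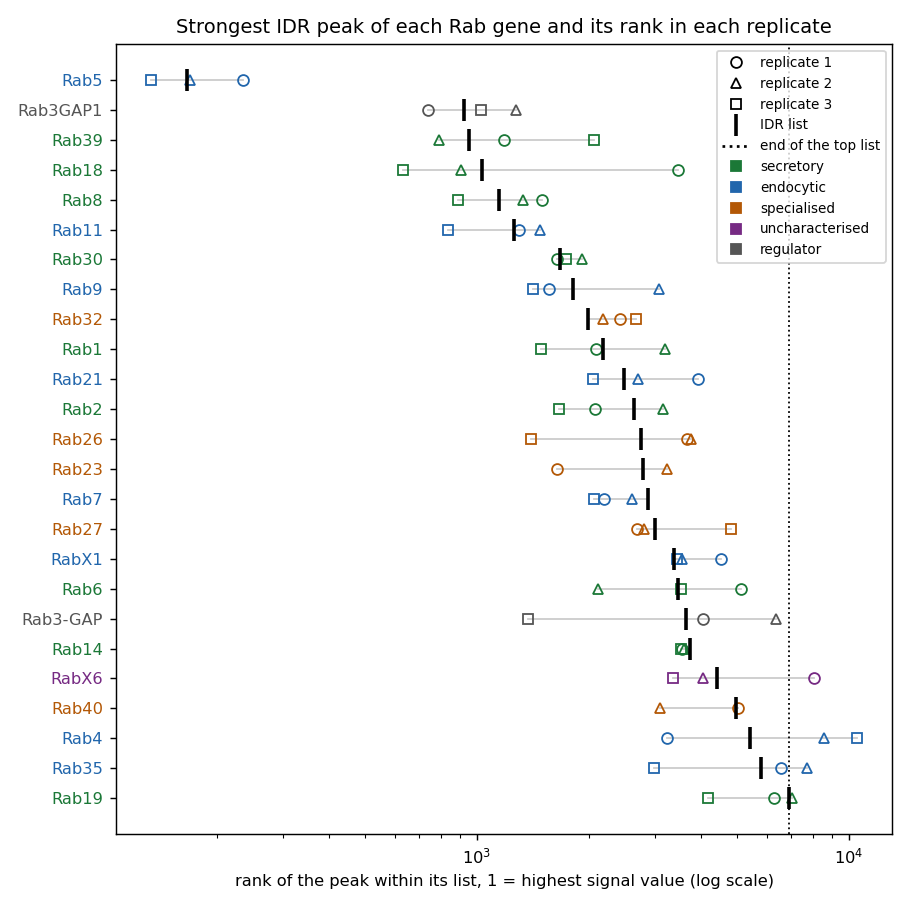
Rank of the strongest IDR peak of each of the 25 Rab genes that carry one, in the IDR list (black bars) and of the peak holding its summit in each replicate (open symbols), on a log axis with 1 the highest signal value; colours are role groups and the dotted line is rank 6896. Rab5 stands at rank 166 and between 133 and 235 in the replicates, while symbols of Rab4, Rab19, Rab35 and RabX6 lie beyond the dotted line.

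As a set, Rab peaks were of middling strength. The best IDR rank per gene had a median of 2763 over the 25 Rab genes and 2741 over the 6177 protein-coding genes with a peak. Of the 36 Rab peaks, 8 were among the 1724 strongest of the list and 20 among the 3448 strongest (55.6%), where 17 of 36 Rab genes carried one against 26.7% of protein-coding genes. The summits of 23 (63.9%) lay in the top lists of all 3 replicates, 10 in exactly 2, 3 in exactly 1 and none in 0, while 57% of all IDR peaks were in all 3. With a reciprocal overlap of at least 50% as the criterion, 10 Rab peaks (27.8%) and 36% of all IDR peaks were in all 3, so the Rab share was then the lower of the pair. The share of genes with a peak thus differed more from that of all genes than the strength of the peaks did; neither difference was tested.

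Rab peaks were promoter peaks. Of 36, 31 (86.1%) lay in promoters, taken as the 1000 bp before a TSS and the 100 bp after it, 4 in introns and 1 in a 5′ untranslated region, and 72.7% of all IDR peaks lay in promoters. In the replicate top lists 91.2%, 87.5% and 91.9% of the peaks at Rab genes were in promoters (90.2% ± 2.36, mean ± SD, n = 3). The assignment to a gene body and its upstream 1 kb itself favours promoters and leaves out intergenic peaks. The summit lay upstream of the Rab gene's own nearest TSS for 22 peaks and downstream for 14, with a median distance of 91 bp, and 22 of 36 genes had a summit within 250 bp of a TSS of theirs against 35.9% of protein-coding genes. The introns with a peak were those of Rab9, Rab11, Rab23 and Rab32.

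**Figure D3:**
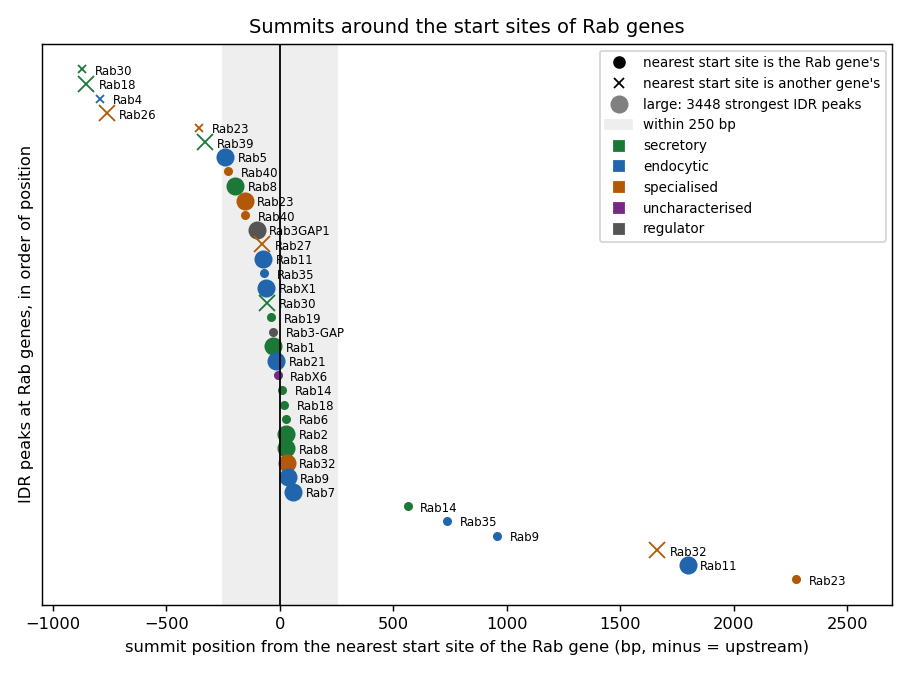
Position of each of the 36 IDR summits at Rab genes from the nearest start site of that gene (bp, minus is upstream), 1 row per peak; circles have the Rab gene's own start nearest, crosses another gene's, large symbols are among the 3448 strongest IDR peaks, and the grey band is 250 bp on either side. Of the summits, 24 lie within the band, and the 9 with another gene's start nearest lie upstream of the band, within it or, for Rab32, in an intron.

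Many of these promoters serve a pair of genes. A protein-coding neighbour on the other strand, starting within 500 bp upstream, was present for 16 of 36 Rab genes and for 27.3% of all protein-coding genes. Of these 16 Rab genes 15 carried an IDR summit, the exception being Rab10, and 74.1% of all genes in such pairs did. The summit could lie elsewhere in the gene than at the paired start. At Rab5 the only IDR summit lay 1526 bp inside the gene, away from the start paired with Axud1. Of the 20 Rab genes with no such neighbour 10 carried one, against 33% of all such genes. Of the 36 Rab peaks, 21 also fell in the window of another protein-coding gene, and 9 had another gene's TSS nearest. The matching shares of all IDR peaks are not given here, so neither count can be called high or low. When a peak was given only to the gene with the nearest TSS, 20 Rab genes carried one, against 32.3% of protein-coding genes, and Rab4, Rab26, Rab27, Rab30 and Rab39 no longer did. A peak in a shared promoter does not tell which of the genes it belongs to.

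The 11 genes with no IDR peak ranged from ones with weak peaks in the pooled and replicate lists to ones with no summit in any list. Rab10, of basement membrane secretion, had a peak in each of these other lists. Its best pooled peak lay 49 bp inside the start (signal 156, rank 9423). The best peaks of Rab10 ranked 11039, 12615 and 2407 in replicates 1, 2 and 3, so only replicate 3 had one in its top list. They lay 77 bp and 179 bp upstream of the start in replicates 1 and 2, and 29 bp inside it in replicate 3. Their ranks therefore need not be those of a single site. Rab9D had a pooled peak of signal 196.5 and rank 7158, 747 bp upstream of it, beside the weakest IDR member Rab19 at 202.3. Its ranks were 10560, 11303 and 6262, so again only replicate 3 had it in the top list.

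RabX4 had best ranks of 15151 in the pooled list and 13121, 16432 and 25373 in the replicates. Rab3 had a single weak pooled peak at rank 24882 and none in replicate 2. Rab3-GEF had none in the pooled list and none in replicate 2, although its 24081 bp make it the longest gene of the family. Rab9Fb had 1 peak in replicate 3 at rank 26713. RabX2, RabX5, Rab9Db, Rab9E and Rab9Fa had no summit in any list.

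The members without a peak differed in length and in repeated sequence. Of 7 Rab genes of at most 1000 bp, all on X, 1 carried an IDR summit (Rab18), against 20% of all protein-coding genes of that length. Of the 29 longer ones 24 did, against 50%, with 13 of 14 between 2000 and 5000 bp and 5 of 7 above that. By chromosome, 6 of 14 Rab genes on X carried one (49.2% of X-linked protein-coding genes) and 19 of 22 on the autosomes (43.4%). The windows of Rab9E, Rab9Fa, Rab9Db and Rab9D consisted to 57.7%, 56.1%, 52.4% and 44.3% of 31-base words that occur more than once in the main chromosomes, that of RabX2 to 19.3% and that of Rab9Fb to 3.35%, while no Rab gene with an IDR peak exceeded 0.457%. The other 5 genes without an IDR peak had few repeated words or none, with 0.879% for Rab10, 0.0319% for Rab3-GEF and 0% for Rab3, RabX4 and RabX5. The sources used here do not state how reads matching several places were treated. The part of length and of copies in the missing peaks was not tested.

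Genes that act on Rab proteins carried peaks at shares from 69% to 100%, against the same 44.2% background. Symbols were matched as spelled, and the lists matched 4 of 6 (prenylation and recycling), 16 of 28 (GEFs), 15 of 23 (GAPs), 42 of 48 (tethers and effectors), 12 of 17 (Arf and Sar) and 11 of 13 (Ras) symbols. All 4 genes of Rab prenylation and recycling did: Rep, the escort protein (signal 798), RabGGTb (729.5, with Sbat nearest), Gdi, which extracts Rabs from membranes (505.4, in an intron), and RabGGTa (375). Of 15 GAP genes 13 did, TBC1D16 and Tbc1d22 being without. Of 16 GEF genes 12 did, among them Mon1, of the GEF for Rab7 (signal 972), and strat (513). Rabex-5, a GEF for Rab5, had none; it is named here because of its value. When a replicate was left out, by keeping only IDR peaks found in each of the other top lists, the GEF count fell to 7 without replicate 1 and to 7 without replicate 2, where the share of all protein-coding genes fell to 33.6% and 32.6%. The GAP list holds 2 members of the Rab family as defined here and the GEF list 1.

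Of 42 tether and effector genes 29 carried a peak (69%), the strongest at Vps33B (signal 1391), Rbsn-5, an effector of Rab5 (1088), and the exocyst gene Sec15 (1061). For these 3 the nearest TSS was another gene's, namely Fur1, PAPLA1 and rtet. Other small GTPase families had 11 of 12 for Arf and Sar genes (without Arl6) and 7 of 11 for Ras genes, led by Rheb (607.3), Rap2l (566.6, with RpL39 nearest) and Ras64B (466.2, with Rop nearest). The Ras list as written also holds Ran, a small GTPase outside the Ras family proper, which carried a peak. By the same criterion the Arf count fell to 7 without replicate 1 and to 7 without replicate 3, where the share of all protein-coding genes was 33.6% and 35%. Their exact intervals overlapped that of the Rab genes, and the difference was not tested.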

How the data were processed

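The peak lists of 1 group with 3 biological replicates were analysed, with replicate numbers from the labels. The authors deposited narrowPeak files whose signal values come from the peak caller and order peaks within a list only. Their −log10 q values, also deposited, are equal for all IDR peaks and were left unused. Per the deposited file listings, peaks were called per replicate and on the pooled replicates against 1 control file, on build dm6. Aligner, caller and IDR threshold: not given in the sources used here. Summits are the deposited start plus offset. Every IDR peak occurs in the pooled list with the same rank.

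Genes came from Ensembl release 115 (BDGP6.54) and sequence from RefSeq, the same assembly as dm6; coordinates are 1-based. A summit was placed in the first class holding it: promoter, 5′ UTR, coding sequence, 3′ UTR, other exonic sequence, intron, intergenic. In replicates, the strongest peak holding an IDR summit gave the rank. Intervals are exact (Clopper-Pearson, 95%). Analyses used Python 3.11.15, numpy 2.4.6, pandas 2.3.3 and scipy 1.17.1; the assignment, support and pattern functions were tested on simulated data. All members are named, each with its strongest peak. Of the other 6 lists, genes with no peak are named where 3 or fewer, otherwise the 3 strongest; some genes, lists and sequences are not reported here. Gene symbols were matched as spelled, and unmatched ones were dropped. Members and lists were chosen with earlier results of these data known. No test was made, since there is 1 group.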

Additional observations from a re-analysis of the deposited data

How the results depend on the processing

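Of 60 recomputed values of the main results, 36 stayed within 1.5 times the count or within 1 SD of the replicates and 24 did not; the cause was not tested unless named. The count of 25 Rab genes with an IDR peak was 14 when the gene body alone was used, which leaves out the upstream summits, and from 17 to 29 under every other alternative run. For the gene body alone, no share of all protein-coding genes is given here or below. Counts under that rule cannot be set against the 44.2% background, which includes the 1 kb upstream. The count was 22 without any 1 of the replicates, where leaving out a replicate means keeping the IDR peaks whose summits lie in the top lists of both others. Without replicates 1, 2 and 3 in turn, 33.6%, 32.6% and 35% of all protein-coding genes carried a peak. The members lost were Rab4 in each case, Rab19 and Rab35 without replicate 1, Rab40 and RabX6 without replicate 2, and Rab19 and RabX6 without replicate 3. The share of Rab peaks in promoters was 80.6% with promoters narrowed to 250 bp around each TSS in both directions, 90% among the 3448 strongest IDR peaks, and 92.3% to 96.2% without 1 replicate. Rab peaks in all 3 top lists numbered 10 with a reciprocal overlap of 50% (27.8%, against 36% of all IDR peaks). The mean count in the replicate top lists was 13.7 with the gene body alone. The DRE share was 8.33% with 25 bp to either side of the summit and 27.8% with 100 bp. With the gene body alone the other lists had 1 (prenylation), 3 (GEFs), 8 (GAPs), 11 (tethers and effectors), 5 (Arf) and 4 (Ras) genes with a peak. These counts too stand without a background share. Among the 3448 strongest IDR peaks the other lists had 6 (GEFs), 8 (GAPs), 19 (tethers and effectors) and 4 (Arf). Of all protein-coding genes 26.7% carried one of those 3448. Without 1 replicate the GEF count was 7 to 9 and the Arf count 7 to 8. For the 25 genes with a peak, 64 of 100 recomputed peak counts stayed within 1.5 times and 36 did not, and of 48 recomputed shares of patterns other than DRE 36 stayed within 1 SD and 12 did not. No paired analysis was possible because the series holds 1 group. Replicate lists of equal length say nothing of depth, so weak ranks cannot be weighed by it.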
